A study of Rattus norvegicus with 2 samples.

Results

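The 10 genes of fat and vitamin transport described here were followed through the cells of the fetal rat colon. They were chosen by gene symbol and comprise the 5 apolipoproteins Apoa1, Apoa4, Apob, Apoc2 and Apoe, the 3 fetal plasma carriers Afp, Ttr and Rbp4, and the 2 cytosolic fatty-acid binders Fabp1 and Fabp2. All 10 were matched, each to 1 gene identifier, among the 28116 gene symbols measured. Together they took 0.0443% of the unique molecular identifiers (UMIs, which count single transcripts) of the kept cells in the maternal obesity library and 0.0377% in the control library.

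The data are 2 libraries of single cells from digested colon at embryonic day E19.5. One came from wild-type fetuses of the maternal obesity group (replicate 2) and one from wild-type fetuses of the control group (replicate 1). The library name of the first carries the letters HFD. The labels give neither the diet itself nor the number or sex of the fetuses, nor whether fetuses were pooled or which stretch of colon was taken. Both tissues were digested with collagenase and pancreatic enzymes, and red cells were lysed before loading. Each group is 1 library, so groups cannot be tested against each other and carry no replicate error. Each interval given is a 95% interval that covers counting error only.

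Apolipoproteins coat the particles in which gut and liver export fat. Apob is the scaffold of chylomicrons and of very low density lipoproteins, Apoa1 the main protein of high density lipoprotein, and Apoa4 an intestinal lipoprotein component. Apoc2 activates lipoprotein lipase, and Apoe is a ligand of the low density lipoprotein receptor family that macrophages and glia also secrete. Afp (alpha-fetoprotein) is a main plasma protein of the fetus, made in yolk sac, fetal liver and fetal gut. Rbp4 carries retinol in plasma in a complex with Ttr (transthyretin), which also carries thyroid hormone. Fabp1 and Fabp2, the liver and intestinal fatty-acid binding proteins, hold fatty acids inside absorptive cells. The colon of rodents passes through a stage with villus-like folds before birth.

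The maternal obesity library held 9714 barcodes and 120811946 UMIs, and the control library 8903 barcodes and 103013814 UMIs. Before filtering, haemoglobin genes took 20.6% and 11.5% of all UMIs. Filtering left 7083 and 6830 cells. The libraries shared 130 barcodes, 78 of them among kept cells. Epithelial-like cells, named from 11 pan-epithelial marker genes, were 18.5% of kept cells in maternal obesity (1313 cells) and 38.7% in control (2642 cells). Their median depth was 24920 UMIs in maternal obesity and 16966 in control. They formed 14 sub-clusters, E0 to E12 and E14, found without the 10 genes among the clustering genes. All levels are summed UMIs scaled to the total UMIs of the same cells (UMIs per 1000000, written CPM), and a gene's level is set against its own level in other cells.

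The 10 genes were largely epithelial. In all, 9 of the 10 had over 50% of their UMIs in epithelial-like cells, in each library and in both together. Over both libraries the share was 96.5% for Apoc2, 96.4% for Fabp2, 94.5% for Afp, 94.0% for Apoa4, 93.9% for Ttr, 91.2% for Rbp4, 89.0% for Apob, 84.8% for Apoa1 and 80.0% for Fabp1. Apoe was the exception, with 30.8% of its UMIs in epithelial-like cells in maternal obesity and 47.2% in control. The share of all genes past this mark is not given, and epithelial-like cells were deep. The count alone therefore does not set the 9 apart. By CPM, each of the 9 was higher in epithelial-like than in all other cells in both libraries. Apoa1 was at 3.73 CPM in maternal obesity and 2.13 CPM in control, against 0.382 and 0.681 CPM in all other cells. Apoe was lower in epithelial-like cells, at 137 and 98.1 CPM against 207 and 164 CPM. Fabp1 was barely read, with 29 UMIs in maternal obesity and 19 in control epithelial-like cells, so nothing finer is given for it.

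Within the epithelium most UMIs of each gene lay in 5 of the 14 sub-clusters. Sub-clusters E0 to E4 held between 85.7% (Fabp2) and 99.6% (Apoa4) of a gene's epithelial UMIs. They were 80.7% of epithelial-like cells in maternal obesity and 41.7% in control. Their share of all epithelial UMIs is not given, so the range does not set these genes apart from others. E0 was absorptive-like, led by Mgst1, Otc and the brush-border peptidases Mep1b and Enpep. E4 shared Mgst1 and Otc with it but was led by embryonic haemoglobin genes, so it carries no name. Its haemoglobin share of UMIs was 0.198% in maternal obesity and 0.00923% in control. E1 was led by the growth factor Mdk with Tdh, Postn and Shh, and E3 by Adora2b, Krtap3-1 and the calcium binder S100g, and both stayed unnamed. E2 had defensin genes and smooth muscle genes among its leaders and stayed unnamed too. E5 to E11, with goblet, stem/progenitor, distal surface or defensin genes among their leaders, were low for most of the 10 genes in both libraries. In the 25 E7 cells of maternal obesity, 1 cell held between 88.2% and 100% of the UMIs of Apob, Apoc2, Apoe, Afp, Ttr and Rbp4.

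**Figure D1:**
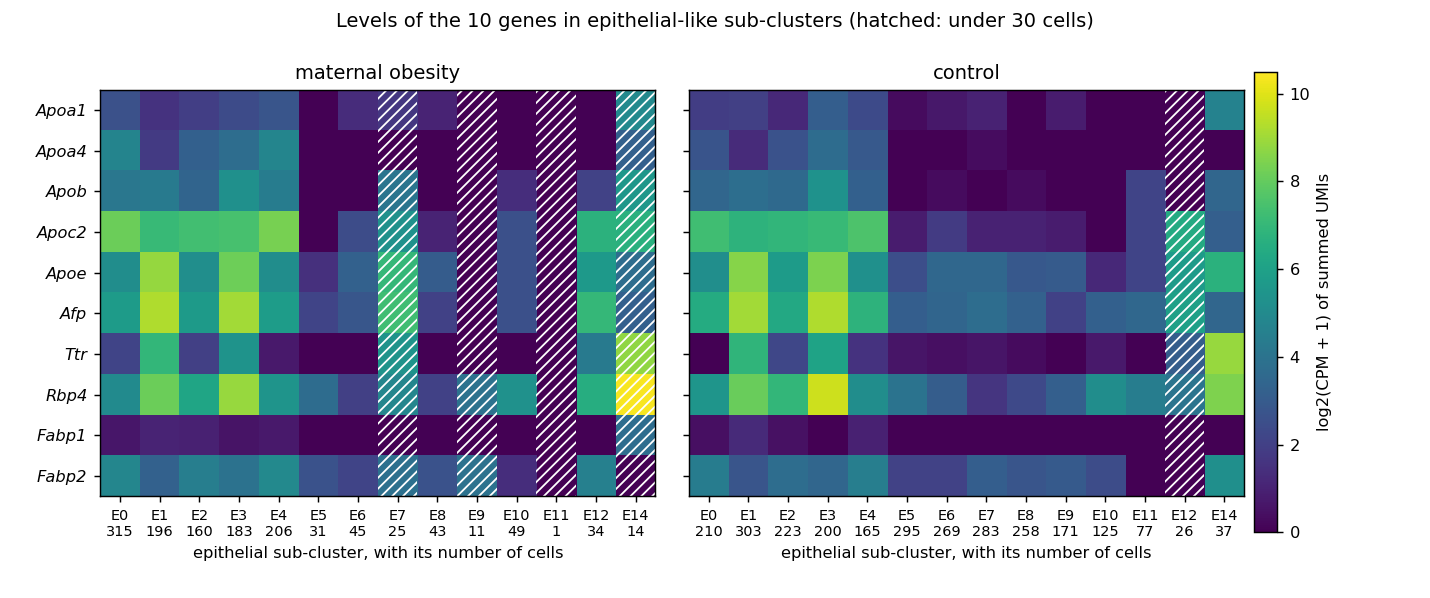
Level of each of the 10 genes (rows) in each epithelial-like sub-cluster (columns, with the number of cells below), as log2(CPM + 1) of summed UMIs, for maternal obesity on the left and control on the right. Hatched columns hold under 30 cells. In both libraries Apoe, Afp, Ttr and Rbp4 are brightest in E1, E3 or, for Ttr and Rbp4, the few cells of E14, and Apoc2 is brightest in E0 and E4.

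Over the 9 sub-clusters with 30 or more cells on both sides, which leaves out E14, the 3 plasma carriers had their highest levels in E1 and E3. Afp stood at 604 CPM in maternal obesity and 528 CPM in control in E1, and at 525 and 610.1 CPM in E3. In the absorptive-like E0 it was 53.5 CPM in maternal obesity and 86.3 CPM in control. After every cell was thinned to 3000 UMIs, 71.6% of E1 cells had an Afp UMI in maternal obesity and 70.3% in control. The same share was 0.761% and 0.840% in enteric neuron-like cells, a class that should lack Afp (median depth 9067 and 7489.5 UMIs, against 29604.5 and 23167 in E1).

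Ttr reached 121.5 CPM in maternal obesity and 115 CPM in control in E1, and 41.3 and 67.4 CPM in E3. In E0 the maternal obesity library had 39 Ttr UMIs, 82.1% of them in 1 cell, and the control library had 0, which allows up to 0.551 CPM. Thinned shares of cells with a Ttr UMI were 22.7% in maternal obesity and 23.0% in control in E1, against 1.02% and 1.26% in enteric neuron-like cells.

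Over the same 9 sub-clusters Rbp4 peaked in E3, at 467 CPM in maternal obesity and 825 CPM in control. In E1 it stood at 280.3 CPM in maternal obesity and 269.7 CPM in control, 2 values whose intervals overlap. In the defensin/Paneth-like E10 Rbp4 was at 39.1 CPM in maternal obesity (24 UMIs) and 34.8 CPM in control (54 UMIs), and Afp at 4.89 and 8.37 CPM.

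By summed level, the hormone-releasing enteroendocrine-like E14 stood above E1 for Rbp4 and Ttr and below E1 for Afp. Rbp4 was at 1339 CPM in the 14 cells of maternal obesity and 355 CPM in the 37 cells of control, and Ttr at 437 and 472 CPM, while Afp was at 8.40 and 10.1 CPM. These levels rest on few cells. One cell held 64.3% of the Rbp4 UMIs in maternal obesity and another 65.3% in control, and 1 cell held 68.3% and 49.1% of the Ttr UMIs. By share of thinned cells, Rbp4 was read in 57.1% of E14 cells in maternal obesity (28.9% to 82.3%) and 17.1% in control (6.56% to 33.6%). In E1 it was read in 70 of 194 thinned cells in maternal obesity and 124 of 300 in control. By this measure E14 lay below E1 in control.

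Among the apolipoproteins, Apoe followed the carriers in the epithelium. It stood at 459.5 CPM in maternal obesity and 379.6 CPM in control in E1, at 286 and 348 CPM in E3, and at 34.3 and 35.1 CPM in E0. Apoc2 and Apoa4 had the opposite order. Apoc2 was at 278 CPM in maternal obesity and 157 CPM in control in E0 and at 328 and 190.3 CPM in E4, against 134 and 109 CPM in E1. Apoa4 was at 25.6 CPM in maternal obesity and 5.69 CPM in control in E0 and at 2.45 and 1.47 CPM in E1, and the control library had its highest Apoa4 level in E3, at 12.3 CPM. Apob was highest in E3 in both libraries, at 37.7 CPM in maternal obesity and 40.2 CPM in control. Apoa1 ranged over E0 to E4 from 1.90 to 5.84 CPM in maternal obesity and from 1.34 to 7.84 CPM in control, from 10 to 57 UMIs each.

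By summed level Fabp2 lay with Apoc2. It stood at 26.9 CPM in maternal obesity and 20.01 CPM in control in E0 and at 30.05 and 21.5 CPM in E4, with 8.56 and 5.77 CPM in E1. In E8, where Olfm4 led, it was at 5.23 CPM in maternal obesity and 5.90 CPM in control, and in the control cells of E7, led by Scgb1a1 and Aqp3, at 7.76 CPM.

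Over all epithelial-like cells, the carriers and Apoe also went together cell by cell, as did Apoa4 and Apoc2. After thinning, Ttr was read in 59 of 313 epithelial-like cells with an Afp UMI and 0.926% of those without one in maternal obesity, and in 93 of 465 cells and 0.644% in control. Rbp4 was read in 46.2% of cells with an Apoe UMI and 14.0% of those without in maternal obesity, and in 52.9% and 9.48% in control. Apoc2 was read in 72.5% of cells with an Apoa4 UMI and 24.8% of those without in maternal obesity, and in 64.0% and 10.7% in control. These shares pool all sub-clusters, whose levels differ. Within E1, Ttr was read in 28.8% of Afp-positive cells and 7.27% of others in maternal obesity, and in 30.3% and 5.62% in control. Rbp4 was read there in 49.0% of Apoe-positive cells and 21.1% of others in maternal obesity, and in 51.2% and 29.4% in control. For Afp and Rbp4 in E1 the intervals overlapped in each library. In E0 of maternal obesity Apoc2 was read in 72.7% of Apoa4-positive cells and 34.6% of others. The 2 sets were not separate. Afp was read in 31.1% of cells with an Apoc2 UMI and 22.0% of those without in maternal obesity, and in 47.0% and 15.1% in control. Rbp4 was read in 22.5% of cells with an Apoa4 UMI and 19.9% of those without in maternal obesity, with overlapping intervals, and in 15 of 25 cells with one and 14.8% of those without in control. Afp was read in 41.2% of cells with an Apob UMI and 23.4% of those without in maternal obesity, and in 63.5% and 17.8% in control. No such tie was detectable between Fabp2 and Afp. Fabp2 was read in 3.19% of cells with an Afp UMI and 4.94% of those without in maternal obesity. In control it was read in 1.51% and 1.88%, and the intervals overlapped in each library. For Fabp2 and Apoc2 the intervals overlapped in maternal obesity alone. Fabp2 was read there in 5.62% of cells with an Apoc2 UMI and 4.12% of those without, and in control in 5.38% and 1.36%. For Fabp2 and Apoa4 the intervals overlapped in each library.

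Over 23 points (sub-clusters by library with at least 30 cells), Pearson's r of log2(CPM + 10) was 0.92 between Apoe and Afp, 0.90 between Apoe and Rbp4, 0.82 between Ttr and Rbp4 and 0.70 between Apoc2 and Fabp2, but 0.36 between Afp and Fabp2. It was also 0.81 between Apoc2 and Afp, both low in E5 to E11. The points share 2 libraries and their depth, so r only describes them. Of 9078 other genes, those most like each member were named by the same measure. Nearest to Apoc2 were Mogat2, the enzyme that rebuilds triglyceride in enterocytes (r = 0.98), the apical scaffold Pdzk1 (0.98) and Emid1 (0.97). Nearest to Fabp2 were the amine oxidase Maob (0.95), Acbd4 (0.92) and Iah1 (0.89). Among the genes nearest to Afp were Qprt of NAD synthesis (0.97) and Polr3g (0.95), and Qprt also led for Apoe (0.96), with Klhl13 and Mdk (0.95 each). Rbp4 was nearest to Rgs17 (0.93), Mdk (0.91) and Id2 (0.90), and Ttr to Ddah2 (0.95), Plppr3 and Necab2 (0.92 each). Nearest to Apob were Dab2, an adaptor of lipoprotein receptor uptake (0.96), the transporter Abcg2 (0.96) and Fabp3 (0.94).

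The question of the design is how the maternal obesity library differed from control. Summed over all epithelial-like cells, 6 of the 10 genes were at least 1.5-fold higher in maternal obesity, 0 were at least 1.5-fold lower and 4 lay between. Of all 13669 genes with at least 20 UMIs, 11.9% were that much higher and 11.8% that much lower. The median log2 ratio was 0.92 over the 10 genes and 0.05 over all genes.

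The genes past 1.5-fold were the apolipoproteins other than Apoe and the fatty-acid binders. Apoa4 had 549 UMIs (13.5 CPM) in maternal obesity and 151 (2.75 CPM) in control, 4.92-fold higher (4.11 to 5.94). Apoc2 had 7696 UMIs (189.9 CPM) in maternal obesity and 3778 (68.8 CPM) in control, 2.76-fold higher (2.65 to 2.87). Apob stood at 16.6 CPM in maternal obesity and 7.85 CPM in control, 2.12-fold higher (1.87 to 2.40), and Fabp2 at 18.8 and 9.13 CPM, 2.06-fold higher (1.84 to 2.31). Apoa1 was 1.75-fold higher at 3.73 and 2.13 CPM (1.36 to 2.24). Fabp1 was 2.07-fold higher at 0.716 and 0.346 CPM (1.12 to 3.90).

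Apoe and the plasma carriers lay between. Apoe was 1.39-fold higher at 137 CPM in maternal obesity and 98.1 CPM in control (1.34 to 1.45), and Afp 1.33-fold higher at 200.2 and 151 CPM (1.29 to 1.37). Ttr was at 31.3 CPM in maternal obesity and 26.8 CPM in control (ratio 1.17, 1.08 to 1.26), and Rbp4 at 138 and 128 CPM (ratio 1.08, 1.04 to 1.11).

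The make-up of the epithelium differed between the libraries at the same time. Sub-clusters E0 to E4, which carry the genes, were 80.7% of epithelial-like cells in maternal obesity (78.5% to 82.8%) and 41.7% in control (39.8% to 43.6%). E5 to E11, low for most of the genes, were 15.6% and 55.9%. E0 alone was 24.0% in maternal obesity and 7.95% in control. Because the stretch of colon sampled is not given, region, digestion and maternal state cannot be told apart in these shares.

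**Figure D2:**
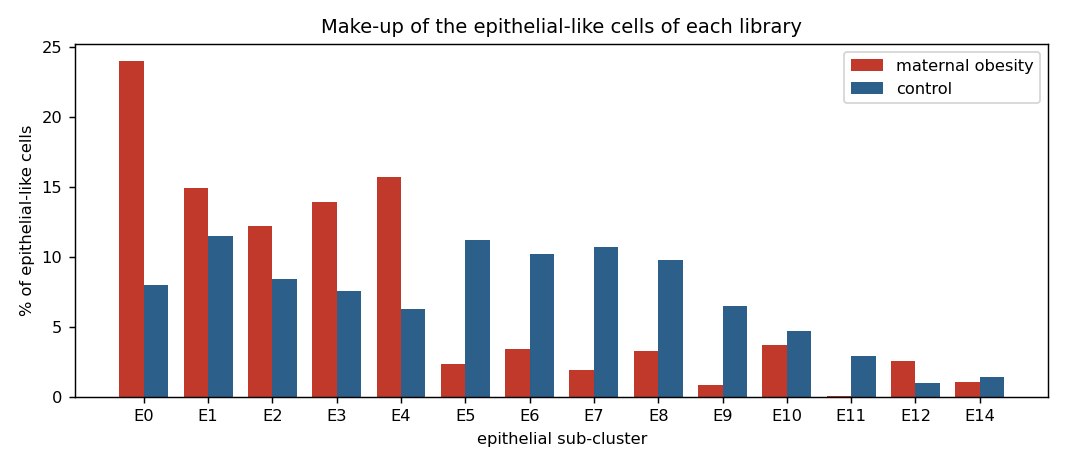
Share of epithelial-like cells (y axis, percent) in each sub-cluster, with maternal obesity in red on the left and control in blue on the right of each pair. E0 to E4 together make 80.7% in maternal obesity and 41.7% in control.

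With sub-cluster levels weighted to the same shares in both libraries, 2 of the 10 genes stayed at least 1.5-fold higher, Apoa4 (9.89 CPM in maternal obesity and 3.95 CPM in control, 2.51-fold) and Apoc2 (142 and 93.1 CPM, 1.52-fold). Of all genes, 12.7% were that much higher and 5.19% lower, where 0 of the 10 were lower, and the median log2 ratio of the 10 was 0.20. Apob (ratio 1.27), Fabp2 (1.39) and Apoa1 (1.13) went below 1.5-fold. Apoe was level, at 119 CPM in maternal obesity and 117 CPM in control, and the carriers had ratios below 1, 0.922 for Afp, 0.928 for Ttr and 0.713 for Rbp4. This weighting was chosen after the shares had been seen and rests on 9 sub-clusters, those of 30 or more cells on both sides.

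**Figure D3:**
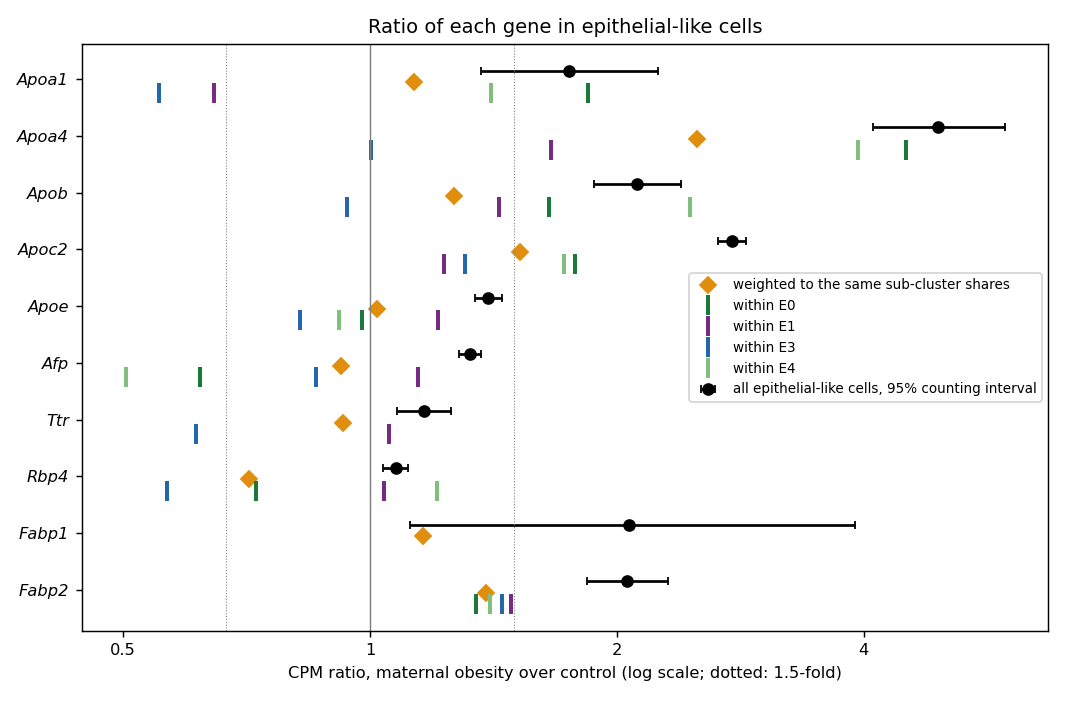
CPM ratio of maternal obesity over control for each gene on a log axis. Black circles with bars are all epithelial-like cells with the 95% counting interval, orange diamonds the ratio at equal sub-cluster shares, and short vertical marks the ratio within E0, E1, E3 or E4 where a gene had at least 20 UMIs and control was above 0. Most diamonds lie left of the circles, and Apoa4 keeps the largest one at 2.51.

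Within sub-clusters Apoa4 differed by place. It was 4.50-fold higher in maternal obesity in E0 (287 UMIs in maternal obesity and 31 in control, 3.10 to 6.74) and 3.94-fold higher in E4 (127 and 21 UMIs, 2.47 to 6.58). In E3 it was equal, at 12.3 CPM in both libraries (ratio 1.00, 0.667 to 1.52). Apoc2 was higher in maternal obesity in each of the 6 sub-clusters where it had at least 20 UMIs. Its ratio was 1.78 in E0 (1.65 to 1.92), 1.72 in E4 (1.56 to 1.89), 1.35 in E2, 1.30 in E3 and 1.23 in E1, and in E6 it was 1.78 with an interval that holds 1, the 9 UMIs of maternal obesity all in 1 cell. Fabp2 was 1.71-fold higher in E2 (1.31 to 2.23), with ratios of 1.35 in E0 and 1.40 in E4. Apob was 2.45-fold higher in maternal obesity in E4 (98 and 26 UMIs, 1.58 to 3.94) and 1.65-fold higher in E0 (1.22 to 2.27). Its ratio was 1.44 in E1 (1.10 to 1.87). In E2 and E3 it was 0.847 and 0.936, with intervals that hold 1.

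The carriers were lower in maternal obesity in several sub-clusters although their summed levels were not. Afp was 1.61-fold lower in E0 (1.43 to 1.82), 1.57-fold lower in E2 (1.38 to 1.79) and 1.99-fold lower in E4 (1.69 to 2.34), and its ratio was 0.860 in E3 (0.812 to 0.912). Only E1 of the 8 sub-clusters measured for Afp had a ratio above 1, at 1.14 (1.10 to 1.19). Rbp4 was 1.77-fold lower in E3 (1.67 to 1.87) and 1.76-fold lower in E2 (1.58 to 1.96), and Ttr was 1.63-fold lower in E3 (1.34 to 1.98). In E1 Ttr and Rbp4 had ratios of 1.06 and 1.04 with intervals that hold 1. Apoe was 1.51-fold lower in E2 (1.28 to 1.77).

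**Figure D4:**
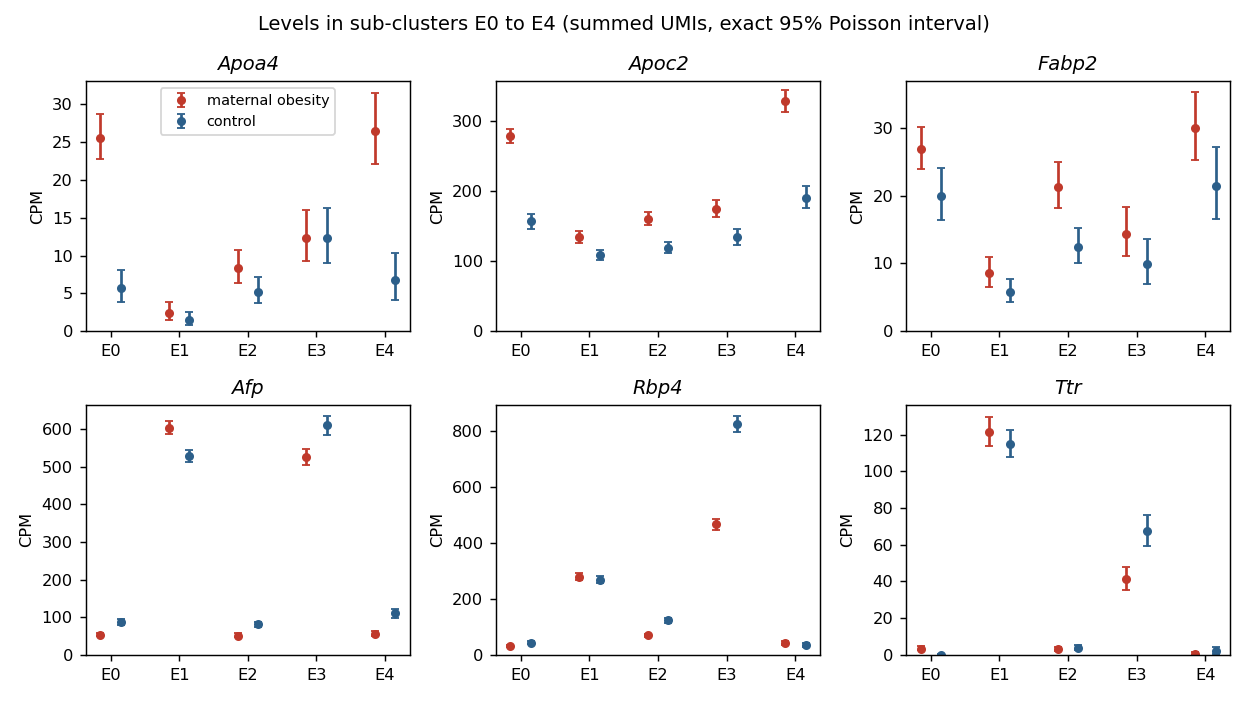
Level (CPM, y axis) of 6 genes in sub-clusters E0 to E4, maternal obesity in red and control in blue, each point from summed UMIs with its exact 95% Poisson interval. Apoa4 is separated between the libraries in E0 and E4 and equal in E3, Apoc2 is higher in maternal obesity in all 5, and Rbp4 is lower in maternal obesity in E2 and E3.

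Counts within the sub-clusters differed from one to the next. In E0, 5 of 9 measured members were at least 1.5-fold higher and 1 lower in maternal obesity, with 14.5% and 3.96% of all genes measured there. Those 5 include Ttr, which rests on 1 cell. In E4, 3 of 8 were higher and 1 lower (17.9% and 3.6% of all genes), and in E2, 3 of 9 were higher and 3 lower (12.3% and 5.9%). In E3, 0 of 9 were higher and 3 lower (11.9% and 6.61%), and in E1, 1 of 9 was higher and 1 lower (13.6% and 4.63%). The calls in E1, Apoa4 higher and Apoa1 lower, had intervals that hold 1. So did Apoa1 among the higher in E2 and the lower in E3.

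Outside the epithelium Apoe was read in every named class. Macrophage-like cells stood highest, at 796 CPM in maternal obesity and 972 CPM in control, and their cluster C25, led by Lyve1, Mrc1 and complement C1q genes, at 1702 and 1911 CPM. Fibroblast-like cells followed at 491 CPM in maternal obesity and 423 CPM in control. Antigen-presenting-like cells were at 326 and 308 CPM, pacemaker-like cells (interstitial cells of Cajal, ICC) at 316 and 355 CPM, and mast-like cells at 254 and 290.03 CPM. Antigen-presenting-like and ICC-like cells had overlapping intervals in each library, and mast-like cells lay below both in maternal obesity alone. The unnamed clusters C15, led by Edn3, Olfml2b and Smoc2, and C18, led by Igfbp5, were at 569 and 488 CPM in maternal obesity and 474 and 430 CPM in control.

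Lower levels of Apoe were read in mesothelial-like cells (147 CPM in maternal obesity and 123 CPM in control), enteric glia-like cells (94.8 and 103 CPM) and subepithelial fibroblast-like cells (82.9 and 65.2 CPM). Smooth muscle-like cells had 42.8 CPM in maternal obesity and 40.5 CPM in control, enteric neuron-like cells 26.0 and 29.2 CPM, and lymphoid-like cells 6.85 and 3.36 CPM from 4 and 1 UMIs. After thinning, Apoe was read in 46.2% of ICC-like cells in maternal obesity and 52.9% in control, and in 6.60% and 6.72% of enteric neuron-like cells. Summed over all other cells Apoe was 1.26-fold higher in maternal obesity (1.22 to 1.30), where fibroblast-like cells were 11.04% of kept cells in maternal obesity and 3.88% in control. Within macrophage-like cells its ratio was 0.819 (0.765 to 0.877) and within fibroblast-like cells 1.16 (1.08 to 1.25). In endothelial-like cells Apoe was 3.23-fold lower in maternal obesity, at 34.7 CPM in maternal obesity and 112 CPM in control, from 11 and 47 UMIs (1.65 to 6.91).

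Rbp4 had 2 further sites. Mesothelial-like cells, which line the outer gut wall, stood at 343 CPM in maternal obesity (208 UMIs, 68 cells) and 207 CPM in control (163 UMIs, 86 cells), 1.66-fold higher (1.34 to 2.05). After thinning 46.9% of these cells had an Rbp4 UMI in maternal obesity and 40.3% in control, with overlapping intervals. Subepithelial fibroblast-like cells were at 66.0 CPM in maternal obesity and 57.3 CPM in control, with 11.3% and 11.4% of thinned cells positive and intervals that overlap. Other named classes with at least 100 cells in each library had Rbp4 at or below 24.3 CPM, and the value of 24.3 CPM in antigen-presenting-like control cells came from 1 cell.

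**Figure D5:**
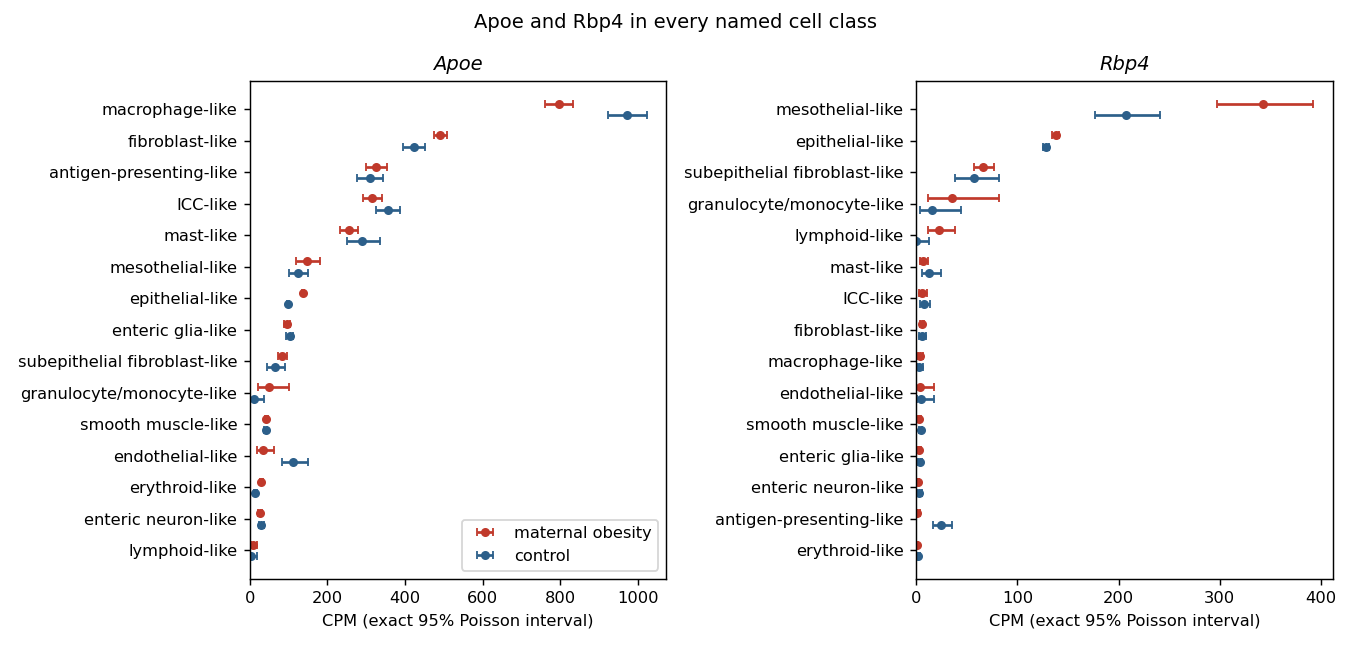
Apoe (left) and Rbp4 (right) in CPM in every named cell class, maternal obesity in red above control in blue, with exact 95% Poisson intervals. Apoe is highest in macrophage-like and fibroblast-like cells, and Rbp4 in mesothelial-like cells in both libraries.

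The other 8 genes were low outside the epithelium. Thinned shares of all other cells in maternal obesity and control were 0.0593% and 0.0302% for Apoa4, 1.03% and 0.844% for Apoc2 and 1.26% and 2.44% for Afp. Ttr was at 4.65 CPM in maternal obesity and 4.45 CPM in control in enteric glia-like cells, with 26 and 25 UMIs. Apoa4 had 42 UMIs outside the epithelium in maternal obesity and 3 in control, and 17 of the 42 lay in the unnamed cluster C31, led by haemoglobin and enteroendocrine genes. The unnamed cluster C6, barcodes of low depth led by epithelial genes, had Afp at 201 CPM in maternal obesity and 343 CPM in control. C6, C21 and C31 passed the epithelial marker threshold but stayed unnamed. The direction of Apob turned with the unnamed clusters. Over all other cells Apob had 66 UMIs in maternal obesity and 70 in control and was 1.74-fold lower (1.22 to 2.47), and C6, C21 and C31 held 22 and 60 of these UMIs. Over the named classes alone it had 34 UMIs in maternal obesity and 9 in control and was 2.39-fold higher (1.12 to 5.67). Over the named classes Afp was at 3.10 CPM in maternal obesity and 4.36 CPM in control (153 and 136 UMIs), and Apoc2 at 2.68 and 1.64 CPM (132 and 51 UMIs).

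Markers of liver cells were counted in the epithelial-like cells because most of the 10 genes are liver genes as well. Of 19 hepatocyte markers 17 were matched, and 15 had a UMI in maternal obesity and 16 in control. Alb, the main plasma protein of liver, had 0 UMIs in maternal obesity and 2 in control, and Kng1 had 0 in both. Serpina1 stood at 118 CPM in maternal obesity and 101 CPM in control, Tf at 111 and 136 CPM, and Apoh at 16.6 and 13.9 CPM. Fga had 163 UMIs in maternal obesity and 61 in control, and Itih3 99 and 111. The summed level of the 17 was 257 CPM in maternal obesity and 259 CPM in control. In E1 the sum was 471 CPM in maternal obesity and 496 CPM in control, with Alb at 0 and 2 UMIs, and in E3 it was 334 and 349 CPM, with Apoh at 43.8 and 40.5 CPM and Alb at 0 in both. Their part in the levels above was not tested.

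Genes of the same pathways were described in epithelial-like cells from 8 lists, as counts at 1.5-fold beside the 11.9% and 11.8% of all genes, and again at equal sub-cluster shares beside 12.7% and 5.19%. Of 26 measured genes of lipoprotein assembly and fat absorption, 10 were higher and 2 lower in maternal obesity, and 6 and 0 at equal shares. Mttp, which loads lipid onto Apob, stood at 19.7 CPM in maternal obesity and 4.86 CPM in control (4.05-fold, 2.18-fold at equal shares), and Soat2, which esterifies cholesterol, at 2.66 and 0.911 CPM (2.93-fold, 1.76-fold at equal shares). Apobec1, the enzyme that edits Apob RNA, was 3.87-fold lower at 1.41 CPM in maternal obesity and 5.45 CPM in control, but 1.26-fold lower at equal shares. P4hb (683 and 747 CPM), Surf4 (132 and 174 CPM) and Sar1b (88.6 and 93.6 CPM) lay within 1.5-fold.

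Of 7 other apolipoproteins measured, 2 were higher and 0 lower, also at equal shares. Apoc3, an inhibitor of lipoprotein lipase, was at 5.21 CPM in maternal obesity and 0.911 CPM in control (5.71-fold, 4.18 to 7.94), and 3.08-fold higher at equal shares. Of 18 lipoprotein receptors and lipases 4 were higher and 3 lower, and 4 and 2 at equal shares. The uptake adaptor Dab2 was 3.24-fold higher at 35.8 CPM in maternal obesity and 11.04 CPM in control (2.01-fold at equal shares). The receptor Lrp1 was 1.70-fold higher, but 1.43-fold at equal shares. The receptor Lrp2 was 2.04-fold lower at 3.21 CPM in maternal obesity and 6.56 CPM in control (2.92-fold lower at equal shares), and the lipase Lipg 2.11-fold lower (1.80-fold lower at equal shares). Of 10 other fatty-acid and bile-acid binders and transporters 3 were higher and 2 lower, and 2 and 2 at equal shares. Slc51a and Slc51b, the paired exporters of bile acids, were 4.24-fold and 6.48-fold higher, with 3.01 and 8.73 CPM in maternal obesity and 0.711 and 1.35 CPM in control, and 2.18-fold and 3.57-fold higher at equal shares. Fabp5, a relative of Fabp1 and Fabp2, was at 444 CPM in maternal obesity and 359 CPM in control.

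Of 16 retinoid genes 4 were higher and 4 lower, and 3 and 4 at equal shares. The intestinal retinol binder Rbp2 was 2.77-fold higher at 4.74 CPM in maternal obesity and 1.71 CPM in control (1.82-fold at equal shares). Crabp2, a binder of retinoic acid, was 2.499-fold lower at 17.8 CPM in maternal obesity and 44.4 CPM in control, but 1.29-fold lower at equal shares. Of 11 other liver and fetal plasma proteins 1 was higher, the fibrinogen chain Fga (4.02 and 1.11 CPM, 3.62-fold, 1.82-fold at equal shares), and 3 were lower, and 2 and 2 at equal shares. Of 29 transcription factors 7 were higher and 7 lower, and 4 and 1 at equal shares. Gata5 was 9.37-fold higher at 4.27 CPM in maternal obesity and 0.456 CPM in control (6.14 to 14.9), and 5.61-fold at equal shares. Klf4 was 2.49-fold lower at 67.7 CPM in maternal obesity and 168 CPM in control, but 1.04-fold lower at equal shares. Of 19 genes of fatty-acid oxidation 4 were higher and 0 lower, and 2 and 1 at equal shares. Acot1 was at 24.97 CPM in maternal obesity and 9.40 CPM in control (2.66-fold, 1.76-fold at equal shares), and the carnitine transferase Cpt1a at 8.93 and 5.12 CPM (1.74-fold, 2.35-fold at equal shares).

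Promoter sequence is shown for 4 genes as examples of 2 patterns. Over the 9 sub-clusters with 30 or more cells on both sides, 2 of them (Afp and Rbp4) were highest in E1 and E3 and 2 (Apoc2 and Fabp2) in E0 and E4. Apoe and Ttr, also highest in E1 and E3, had windows too but are not shown. Each is the 250 bases before the gene's start in RefSeq's GRCr8 assembly, read 5′ to 3′ on the gene's strand. Capitals mark matches on either strand to letters searched for gut and liver factors. Shares are of all 33469 RefSeq windows, searched over the 250 bases before a start. An HNF1 core, GTTAAT, was in 6.45% of them. An HNF4 core, CAAAGT, was in 12.9%. A CDX element, TTTATG, was in 11.4%. A GATA element, AGATAA, was in 10.3%. The TATA box, TATAAA, was in 12.9%.
Afp, chr14:17875646-17875895, minus strand: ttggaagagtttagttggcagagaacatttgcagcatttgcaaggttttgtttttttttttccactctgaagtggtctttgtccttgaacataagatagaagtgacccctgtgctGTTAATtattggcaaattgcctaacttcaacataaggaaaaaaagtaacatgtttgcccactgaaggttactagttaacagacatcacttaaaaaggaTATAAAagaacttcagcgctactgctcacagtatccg
Rbp4, chr1:245313552-245313801, minus strand: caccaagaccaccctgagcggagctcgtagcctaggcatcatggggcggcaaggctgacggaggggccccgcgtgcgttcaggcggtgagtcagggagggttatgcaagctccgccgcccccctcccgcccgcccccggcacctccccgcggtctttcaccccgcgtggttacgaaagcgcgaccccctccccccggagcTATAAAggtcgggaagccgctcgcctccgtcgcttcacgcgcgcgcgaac
Apoc2, chr1:88462366-88462615, minus strand: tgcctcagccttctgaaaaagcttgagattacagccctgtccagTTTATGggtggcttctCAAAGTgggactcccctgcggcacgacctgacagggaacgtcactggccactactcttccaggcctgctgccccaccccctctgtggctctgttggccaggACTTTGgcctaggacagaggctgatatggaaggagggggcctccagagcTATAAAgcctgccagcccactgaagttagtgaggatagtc
Fabp2, chr2:213724379-213724628, plus strand: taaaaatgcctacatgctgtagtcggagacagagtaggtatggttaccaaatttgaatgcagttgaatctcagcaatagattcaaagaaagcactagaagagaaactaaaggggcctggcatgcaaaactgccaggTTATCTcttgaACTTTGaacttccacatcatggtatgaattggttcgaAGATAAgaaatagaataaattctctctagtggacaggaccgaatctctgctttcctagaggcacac

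The Afp stretch held the HNF1 core and the TATA box, and the Rbp4 stretch the TATA box alone. The Apoc2 stretch held the CDX element, the HNF4 core on both strands and the TATA box. The Fabp2 stretch held the HNF4 core once and the GATA element on both strands. Windows were found for 8 of the 10 genes. The HNF4 core was in 2 of these 8, Apoc2 and Fabp2, and the HNF1 core in 2, Afp and Fabp1. The CDX element was in Apoc2 and Fabp1, the GATA element in Fabp2, and the TATA box in 4, Afp, Apoc2, Fabp1 and Rbp4. The windows of Apoa4, Apoe and Ttr matched none of these. A longer HNF4 element, CAAAGTCCA, held by 0.338% of all windows, and a direct repeat of AGGTCA with 1 base between, held by 0.0508%, were in 0 of the 8. No overlaps between matches occurred in these 4 stretches. A match of letters shows no binding.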

How the data were processed

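The authors deposited, for each library, a cell-filtered matrix of UMI counts, whole and not normalised, per the file headers. Counts of identifiers that share a symbol were added. The sources name 2 versions of the counting software, cellranger 6.1.2 in the file headers and Cell Ranger 2.1.1 in the submitters' processing notes, and which one made the counts cannot be told. No source used here gives the build of the genome.

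A floor of 500 genes and a ceiling of 20% mitochondrial UMIs left 7236 barcodes in maternal obesity and 6879 in control. Scrublet in scanpy 1.11.5, at an expected 0.8% per 1000 barcodes, called 153 and 49 doublets (2.11% and 0.712%, expected 7.77% and 7.12%), which were removed, and doublets may remain. Cells were clustered (2000 variable genes without the 10 members, 30 components, 15 neighbours, Leiden resolution 1) into 34 clusters, and epithelial-like cells again into 15 sub-clusters. Clusters were epithelial-like where the mean log2(CPM + 1) of 11 pan-epithelial markers reached 8.5, a rule set after the clusters were seen, as were those that leave low-depth or haemoglobin-led clusters unnamed, C6, C21 and C31 among them, which reached that level. Sub-cluster E13 (59 cells, led by neuron genes) was set aside as mixed.

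UMIs were summed per class and library and divided by the class total. Log2 ratios had 0.5 UMI added to each sum, and genes with at least 20 UMIs over both libraries entered counts. Intervals are exact: conditional binomial for ratios, Clopper-Pearson for shares and Poisson for counts. The limit for a count of 0 is that of 3 counts. Thinning to 3000 UMIs left out 28 epithelial-like cells in maternal obesity and 157 in control. The ratio and the share-weighted ratio were also run on simulated independent Poisson counts. These lack the clumping of UMIs in single cells, so they cannot test the intervals for genes clumped in that way. From each pathway list the 3 most abundant genes and up to 2 in each direction with the interval farthest from 1 (100 or more UMIs) could be named, and for each member with at least 1000 epithelial UMIs the 3 genes most like it, of which 1 is not reported here. The members, lists and names were chosen with earlier results of these data known. Lists hold genes matched by symbol. Sequences come from RefSeq, GRCr8.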

Additional observations from a re-analysis of the deposited data

How the results depend on the processing

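No paired analysis was possible because each group has 1 library, and no replicate could be left out. The count of genes with over 50% of their UMIs in epithelial-like cells was 9 of 10 under each of the 8 alternatives tried for it. The alternative that leaves haemoglobin and mitochondrial genes out of the totals could not change this count. The count at least 1.5-fold higher was 6 and lay between 5 and 8 under the other alternatives, except that it was 2 with sub-clusters weighted by their share in both libraries, where the median log2 ratio was 0.20. The count lower was 0 throughout, except 1 (Afp) with equal weight of sub-clusters. That mean also takes in sub-clusters with too few UMIs to measure, where the ratio comes from the added 0.5 UMI and the depth. Fabp1 was measured in 0 of the 9. Nothing outside this paragraph rests on that mean. With C6, C21 and C31 added to epithelial-like cells, chosen after seeing the data, the counts were 6 and 0 and the median 0.87. At a fold of 2 the counts were 5 and 0, with 4.91% and 5.84% of all genes. The median was 0.60 with cells thinned to 3000 UMIs, where 9 genes were measured, and 0.92 at Leiden resolution 0.5. Over all settings the log2 ratio stayed above 0 for Apoa1, Apoa4 (1.32 to 2.63), Apob, Apoc2 (0.61 to 1.76), Apoe, Fabp1 and Fabp2. It took both signs for Afp (-0.64 to 0.67), Ttr (-0.11 to 0.43) and Rbp4 (-0.49 to 0.34). The -0.64 of Afp is the equal-weight mean, and its share-weighted value was -0.12. Depth limits Fabp1, with 48 epithelial UMIs, and E14, with 14 and 37 cells.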
